A study of Saccharomyces cerevisiae with 50 samples.

Results

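The genes of the aminoacyl-tRNA synthetases of Saccharomyces cerevisiae were followed through the deposited counts. They were found by their 36 systematic names, and all 36 were present among the 5743 genes counted for mRNA and the 5666 counted for ribosome footprints. Of these, 21 encode the enzymes of the cytosol, 14 encode enzymes of the mitochondrion alone, and GRS2, a paralog of the glycyl-tRNA synthetase gene GRS1, was kept apart from both classes. The cytosolic set covers all 20 amino acids, with FRS1 and FRS2 as the beta and alpha subunits of a single phenylalanyl enzyme. In 5 of the 21 cases (ALA1, GRS1, HTS1, VAS1 and CRS1) the gene also supplies the mitochondrial enzyme. By protein fold, 10 of the cytosolic genes encode class I and 11 class II enzymes, and the mitochondrial genes divide 7 to 7.

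An aminoacyl-tRNA synthetase joins an amino acid to its matching tRNA, which makes the substrate that the ribosome uses. Mitochondria translate their own small genome with a separate set of ribosomes, tRNAs and synthetases, and most of these proteins are made from nuclear genes and imported. In yeast, tRNA that lacks its amino acid activates the kinase Gcn2, which raises the translation of the transcription factor Gcn4, a known activator of amino acid biosynthesis genes that binds the sequence TGACTCA.

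All strains were BY4741 MATa with his3Δ1, leu2Δ0 and ura3Δ0. The wild type and the deletion strains also carried met15Δ0, and each deletion strain had 1 ribosomal protein gene replaced by kanMX4 (Δrpl7a, Δrpl9a, Δrpl6a, Δrpl15b or Δrps27b). These 6 strains gave mRNA libraries and ribosome profiling libraries, the latter a method that sequences the mRNA fragments covered by ribosomes (footprints), with 3 libraries per strain and assay and 2 for the footprints of Δrpl6a. The study counts Δrpl7a and Δrpl9a as long-lived and the other 3 deletion strains as short-lived. PADH1-GCN4 expressed chromosomal GCN4 from the ADH1 promoter, joined to kanMX4 at the GCN4 locus, and S242L expressed from the same promoter, also joined to kanMX4, a Gcn4 in which a serine is changed to leucine. Both were compared with a wild type that, like them, lacks the met15Δ0 allele, termed wt(met). PGAL-GST-GCN4 (met15Δ0) carried a multicopy pEGH plasmid with GCN4 fused to GST under the GAL1-10 promoter, and its control wt(ura3), also met15Δ0, carried the empty multicopy plasmid pRS426. These GCN4 strains were profiled for mRNA in 3 libraries each. Cultures were grown to mid-log phase in YPD, a rich glucose medium, unless the study states another, and the sources used here state none for the RNA libraries of the plasmid strains. The study describes the GST-GCN4 plasmid as galactose-inducible, so growth of the plasmid strains in glucose cannot be assumed.

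Library totals ran from 5709195 to 12696200 counts for the mRNA of the deletion strains, from 8092039 to 15437373 for footprints, from 14061819 to 25642672 for the PADH1-GCN4 set and from 10722664 to 13693442 for the plasmid strains. A mitochondrial synthetase gene received between 66 and 588 counts per mRNA library of the deletion strains and between 42 and 530 per footprint library. A cytosolic gene received at least 1083 and at least 2400 counts, so that small differences were easier to detect in the cytosolic class. Enzymes for the same amino acid could be told apart in the counting: over 15 pairs the longest identical stretch of coding sequence was 17 bases, shorter than the 20 bases required of a read. The proteins of GRS1 and GRS2 were identical at 59.9% of the residues of the shorter one, and those of YDR341C (cytosolic arginyl) and MSR1 (mitochondrial arginyl) at 58.6%. The other 13 pairs lay between 18.4% and 42.9%.

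The Gcn4 sequence was searched on both strands from 250 bases before to 50 bases after each start codon in the RefSeq assembly R64 (the submitters' notes name sacCer3, the same assembly). The full motif TGACTCA lay in the windows of 3 of the 21 cytosolic genes (14.3%), of 0 of the 14 mitochondrial genes, and in 2.73% of the windows of all 6001 genes. Its 6-base core TGACTC, which every full motif contains, lay in 9 of 21 cytosolic windows (42.9%), in 0 of 14 mitochondrial windows, and in 7.98% of all windows. The GRS2 window held neither. The stretches are shown because these genes recur in the comparisons below. Each is written 5′ to 3′ on the strand of its gene, with the match in capitals (GAGTCA is TGACTC read on the other strand).
KRS1 (lysyl, chrIV:525296-525321, + strand, 128 bases before the start codon): aatgatgaaaTGACTCttaatgaact
YDR341C (arginyl, chrIV:1153811-1153837, - strand, 194 bases before): aagtgtctaaTGAGTCAgttatttctt
VAS1 (valyl, chrVII:672078-672103, + strand, 92 bases before): ttttttagaaGAGTCAcccatacagc
YHR020W (prolyl, chrVIII:143803-143829, + strand, 176 bases before): aagcgatgctTGAGTCActgaatgtct
ILS1 (isoleucyl, chrII:84348-84373, - strand, 96 bases before): gaaacaatgaTGACTCttaagcatga
ALA1 (alanyl, chrXV:949141-949166, - strand, 41 bases before): ttaaggaactTGACTCtttctttcaa
THS1 (threonyl, chrIX:212285-212310, + strand, 198 bases before): actgtttaaaTGACTCttaccttgtg
CRS1 (cysteinyl, chrXIV:182779-182804, + strand, 80 bases before): tcatcgcgaaGAGTCAaaagacatta
GLN4 (glutaminyl, chrXV:649312-649338, + strand, inside the coding sequence): gtagaagaatTGACTCAgctgttttca

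DED81 (asparaginyl) and YHR020W are neighbours on chromosome VIII that are read away from each other, with 437 bases between their start codons. The TGAGTCA written above for YHR020W therefore also lies 254 bases before the start codon of DED81, just outside its window. A match is only a run of letters, and binding was not examined here. The study mapped Gcn4 binding in PGAL-GST-GCN4 by sequencing the DNA precipitated with the tagged protein, and those data were not used.

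The question for the wild type was how far the classes lie apart. Levels are given as counts scaled to library size (CPM) per kilobase of coding length (CPM per kb), so that genes of different length can be compared. In wild-type mRNA, the 21 cytosolic genes ran from 159 CPM per kb (CRS1) to 603 (SES1, seryl), with a median of 289. The 14 mitochondrial genes ran from 8.18 (MSY1, tyrosyl) to 30.2 (MSW1, tryptophanyl), with a median of 15.8. The classes did not overlap, and their medians differed 18.3-fold. GRS2 (YPR081C), at 14.7 ± 2.09 CPM per kb (SD, n = 3), lay among the mitochondrial genes, whereas GRS1 (YBR121C) stood at 386 ± 7.46. For each of the 14 amino acids with a separate mitochondrial enzyme the cytosolic gene was higher, from 9.32-fold for YHR020W over AIM10 (mitochondrial prolyl) to 45.5-fold for TYS1 (tyrosyl) over MSY1.

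The classes lay further apart in footprints. Cytosolic genes ran from 194 (CRS1) to 771 CPM per kb (SES1), mitochondrial genes from 6.49 (ISM1, isoleucyl) to 19.6 (MSW1), and the medians differed 36.3-fold. The ratio of wild-type footprint CPM to mRNA CPM, a relative measure of ribosomes per mRNA, had a median of 1.30 over the cytosolic genes (range 0.886 to 2.15) and of 0.645 over the mitochondrial genes (range 0.421 to 1.61). ALA1 was the highest of all members at 2.15, and MSR1 the lowest at 0.421. Mitochondrial genes above the lowest cytosolic value (WRS1, tryptophanyl) were MSY1 at 1.61, MSD1 (aspartyl) at 1.00 and NAM2 (leucyl) at 0.916, and GRS2 stood at 0.484. These ratios compare assays that were scaled separately and are given without a test.

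**Figure D1:**
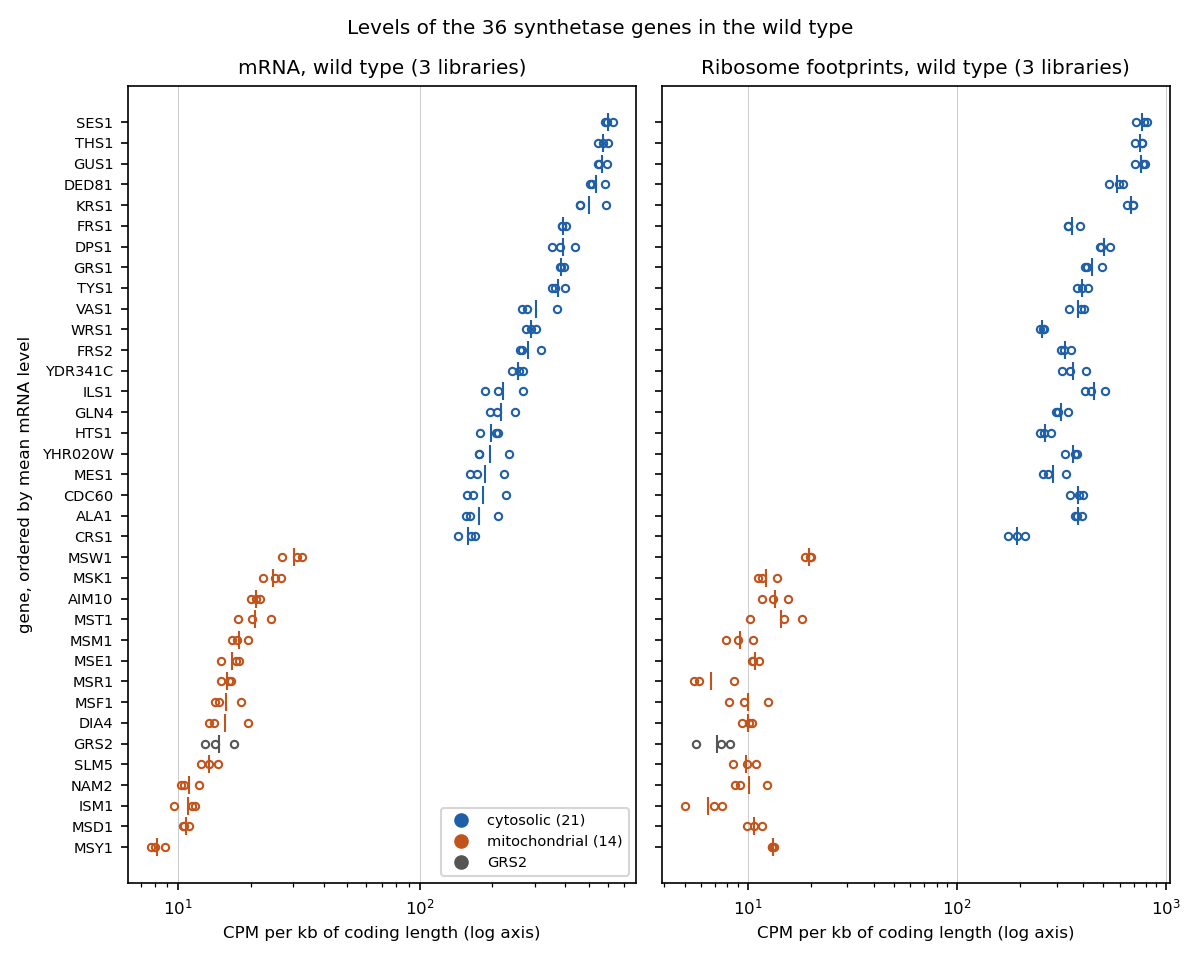
Levels of the 36 genes in the 3 wild-type libraries for mRNA (left) and ribosome footprints (right), in CPM per kb of coding length on a log axis. Open circles are libraries and ticks are means. The lowest cytosolic mean (CRS1, 159 for mRNA and 194 for footprints) lies above the highest mitochondrial mean (MSW1, 30.2 and 19.6).

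With GCN4 expressed from the ADH1 promoter, genes of cytosolic synthetases rose and those of mitochondrial synthetases did not. GCN4 itself read 1024, 929 and 1142 CPM in wt(met), 3696, 3558 and 4009 in PADH1-GCN4 and 5354, 5608 and 5655 in S242L. A difference is said to pass the test at an adjusted p below 0.05 by edgeR's quasi-likelihood test over all genes, and to be called when it also reaches the study's thresholds, an adjusted p below 0.01 and more than 2-fold. In PADH1-GCN4, 15 of the 21 cytosolic genes passed as higher and SES1 as lower, where 25% of 5547 genes tested passed as higher and 24.2% as lower. The cytosolic median was 0.54 on the log2 scale, against -0.01 for all genes. Of the cytosolic genes 5 were called higher (KRS1, YDR341C, DPS1, CDC60 and VAS1), where 6.49% of all genes were. None of the 14 mitochondrial genes passed as higher and 3 passed as lower (glutamyl MSE1, threonyl MST1 and AIM10), with a median of -0.15. Together the cytosolic genes took 1.00% to 1.10% of the counts of the wt(met) libraries and 1.71% to 1.86% of those of PADH1-GCN4. Counts are relative to the total of a library, so that a rise of these mRNAs and a loss of others cannot be told apart.

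KRS1 (YDR037W), which charges tRNA with lysine, read 706, 685 and 663 CPM in wt(met) and 2512, 2430 and 2582 CPM in PADH1-GCN4. It rose by 1.86 ± 0.09 on the log2 scale (SE), or 3.64-fold (edgeR adjusted p = 2e-08). YDR341C, the arginyl enzyme, went from 341, 301 and 361 CPM to 1236, 1046 and 1132 CPM, a log2 difference of 1.76 ± 0.11 (edgeR adjusted p = 1.4e-07). For both genes every PADH1-GCN4 library was above every wt(met) library. DPS1 (YLL018C), the aspartyl enzyme, had no TGACTC in its window and went from 539, 589 and 545 CPM to 1587, 1788 and 1773 CPM, or 1.61 ± 0.09 on the log2 scale (edgeR adjusted p = 1e-07).

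Not all cytosolic genes moved in this direction. SES1 (YDR023W) read 593, 549 and 587 CPM in wt(met) and 493, 408 and 426 CPM in PADH1-GCN4, with no overlap, a log2 difference of -0.39 ± 0.10 (edgeR adjusted p = 0.0071). GRS1, GUS1 (glutamyl), MES1 (methionyl), FRS1 and GLN4 did not pass, with log2 differences from -0.22 for GLN4 to 0.31 for MES1. Among the mitochondrial genes, MSE1 read 29.5, 29.5 and 30.2 CPM in wt(met) and 23.7, 21.2 and 19.3 CPM in PADH1-GCN4, a log2 difference of -0.48 ± 0.10 (edgeR adjusted p = 0.0025). MST1 and AIM10 differed by -0.28 and -0.24. AIM10 no longer passed when any 1 of the 6 libraries was left out. MST1 did not pass without replicate 1 or 3 of wt(met) or replicate 1 or 2 of PADH1-GCN4.

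The 8 cytosolic genes with a TGACTC upstream of the start codon had a median log2 difference of 0.83 in PADH1-GCN4 and all 8 passed as higher. The other 13 had a median of 0.31, and 7 of them passed as higher. Within the second set were DPS1 and CDC60 (leucyl, 1.10), both called higher. DED81 (0.94, passed as higher) was also in it, since the TGAGTCA before its start codon lies just outside its window. By other divisions of the class, the median was 0.73 for class II and 0.51 for class I enzymes, and 0.73 for the 5 genes that also supply the mitochondrion and 0.53 for the other 16. These medians are descriptions, with no test.

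**Figure D2:**
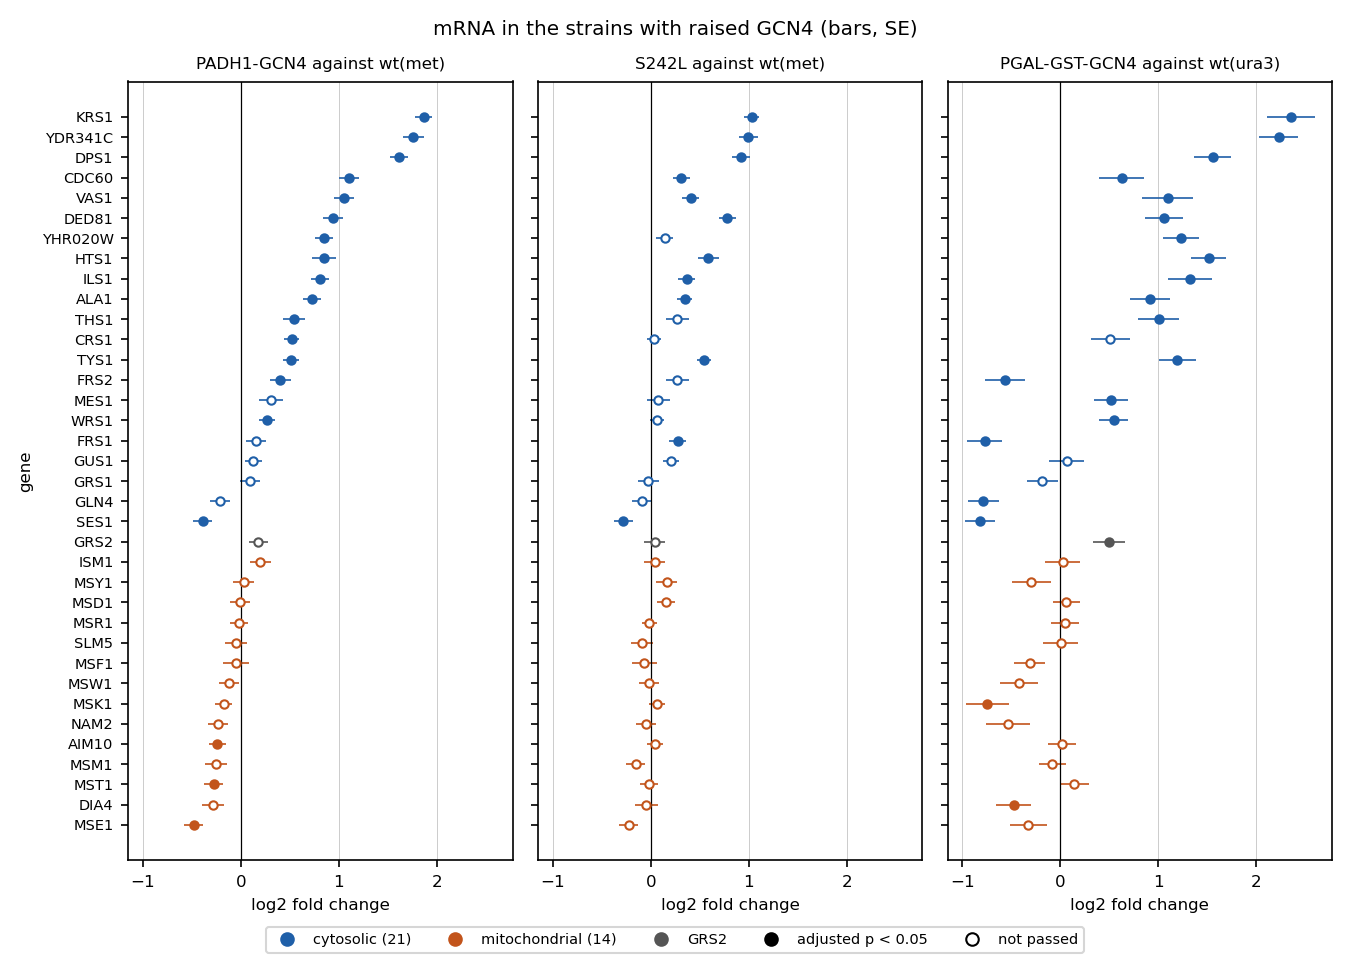
Log2 fold changes of mRNA for each of the 36 genes (rows) in PADH1-GCN4 and S242L against wt(met) and in PGAL-GST-GCN4 against wt(ura3), on a shared axis, with bars for SE and filled circles for an adjusted p below 0.05. KRS1 and YDR341C lie highest in all 3 panels (1.86 and 1.76, 1.03 and 1.00, 2.35 and 2.23), and no mitochondrial gene passed as higher.

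S242L was compared with the same wt(met) libraries. In it, 11 of the 21 cytosolic genes passed as higher, SES1 passed as lower (-0.28 ± 0.09, edgeR adjusted p = 0.049), and none of the 14 mitochondrial genes passed, where 12.8% of 5545 genes passed as higher and 10.9% as lower. At an unadjusted p below 0.05, 1 of the 14 mitochondrial genes differed by edgeR, and by DESeq2 0 passed. The cytosolic median was 0.28. KRS1 alone was called, at 1357, 1390 and 1459 CPM, a log2 difference of 1.03 ± 0.08 (edgeR adjusted p = 6.4e-07), where 2.9% of all genes were called higher. YDR341C followed at 1.00 ± 0.10 (edgeR adjusted p = 1.1e-05) and DPS1 at 0.92 ± 0.09. SES1 did not pass without 5 of the 6 libraries in turn, replicate 1 of S242L being the exception.

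PADH1-GCN4 and S242L were also compared directly. With unaltered Gcn4, 10 of 21 cytosolic genes were higher and none was lower, where 20.2% of 5545 genes passed as higher and 16.7% as lower, and the cytosolic median was 0.27. The largest differences were KRS1 at 0.84 ± 0.08 (edgeR adjusted p = 6.1e-06) and CDC60 at 0.79 ± 0.09 (edgeR adjusted p = 2.9e-05). CDC60 read 797, 676 and 822 CPM in PADH1-GCN4, 447, 438 and 438 CPM in S242L and 346, 357 and 362 CPM in wt(met), so that the groups did not overlap. Of the 8 genes with a TGACTC upstream within the window 7 passed as higher, and of the other 13 genes, DED81 among them, 3 did. TYS1, DED81 and HTS1 (histidyl) passed as higher against wt(met) in both strains but did not pass in the direct comparison. Of the mitochondrial genes AIM10 (-0.28 ± 0.08, edgeR adjusted p = 0.016) and MSK1 (lysyl, -0.24 ± 0.08, edgeR adjusted p = 0.043) were lower in PADH1-GCN4. AIM10 did not pass without replicate 2 of S242L, nor MSK1 without 5 of the 6 libraries. GCN4 mRNA was lower in PADH1-GCN4 than in S242L (-0.56 ± 0.10, edgeR adjusted p = 0.00084). The sources used here do not say whether the libraries of both strains were sequenced together.

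PGAL-GST-GCN4 showed larger differences in both directions. GCN4 read 938, 999 and 868 CPM in wt(ura3) and 32003, 41901 and 38099 CPM in PGAL-GST-GCN4. Of the cytosolic genes 14 passed as higher and 4 as lower, where 26% of 5574 genes passed as higher and 23.5% as lower, and the median was 0.91. With 10 of the 21 called higher, the class stood beside 14% of all genes. KRS1 read 414, 431 and 276 CPM in wt(ura3) and 1771, 2191 and 1758 CPM in PGAL-GST-GCN4 (2.35 ± 0.24, edgeR adjusted p = 7.9e-05). YDR341C went from 248, 263 and 210 CPM to 977, 1270 and 1131 CPM (2.23 ± 0.20, edgeR adjusted p = 3.1e-05). The groups lay far apart for both genes. The other 8 called genes were DPS1, HTS1, ILS1, YHR020W, TYS1, VAS1, DED81 and THS1, from 1.55 down to 1.00. Of the 15 cytosolic genes that passed as higher in PADH1-GCN4 and the 14 that did so in PGAL-GST-GCN4, 13 were shared, 86.7% of the first list and 92.9% of the second. These comparisons share no libraries, but GCN4 was raised in both strains. The share of all genes that passed as higher in both was not counted, so the overlap is a description only.

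The cytosolic genes that were lower in PGAL-GST-GCN4 were SES1, GLN4 and both subunits of the phenylalanyl enzyme. SES1 read 508, 528 and 526 CPM in wt(ura3) and 311, 293 and 280 CPM in PGAL-GST-GCN4 (-0.82 ± 0.15, edgeR adjusted p = 0.0019). GLN4 read 340, 351 and 294 CPM against 215, 177 and 178 CPM (-0.79 ± 0.16, edgeR adjusted p = 0.003). FRS1 and FRS2 differed by -0.78 ± 0.18 and -0.57 ± 0.21, whereas in PADH1-GCN4 they differed by 0.15 ± 0.10 and 0.40 ± 0.11. The difference between those strains was not tested, since they have separate controls and tables. FRS2 did not pass without 5 of the 6 libraries in turn, replicate 3 of wt(ura3) being the exception.

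In the mitochondrial class, MSK1 (101, 117 and 183 CPM against 76.4, 77.4 and 84.9 CPM, -0.75 ± 0.22, edgeR adjusted p = 0.019) and DIA4 (seryl, -0.48 ± 0.18, edgeR adjusted p = 0.047) passed as lower, and none passed as higher. MSK1 did not pass without replicate 2 of PGAL-GST-GCN4 (edgeR adjusted p = 0.058), nor DIA4 without 5 of the 6 libraries in turn (up to 0.15). With the replicate number as a block 4 mitochondrial genes passed as lower, MSW1 and NAM2 being added. GRS2 read 43.8, 48.7 and 45.3 CPM in wt(ura3) and 52.3, 69.9 and 72.0 CPM in PGAL-GST-GCN4 (0.49 ± 0.17, edgeR adjusted p = 0.033). It did not pass without 4 of the 6 libraries in turn (up to 0.15). In the control of these strains the medians of the classes were 141 and 42.9 CPM per kb, 3.3-fold apart, and in wt(met) they were 203 and 14.6, 13.9-fold apart. Those tables were scaled separately, so the levels are given side by side only. Each fold difference between classes lies within 1 table and does not depend on that scaling. However, wt(ura3) and wt(met) differ in plasmid and met15 allele, and no medium is stated for the RNA libraries of the plasmid strains. With a galactose-inducible plasmid in use, the carbon source may differ as well. What sets the controls apart was not tested.

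**Figure D3:**
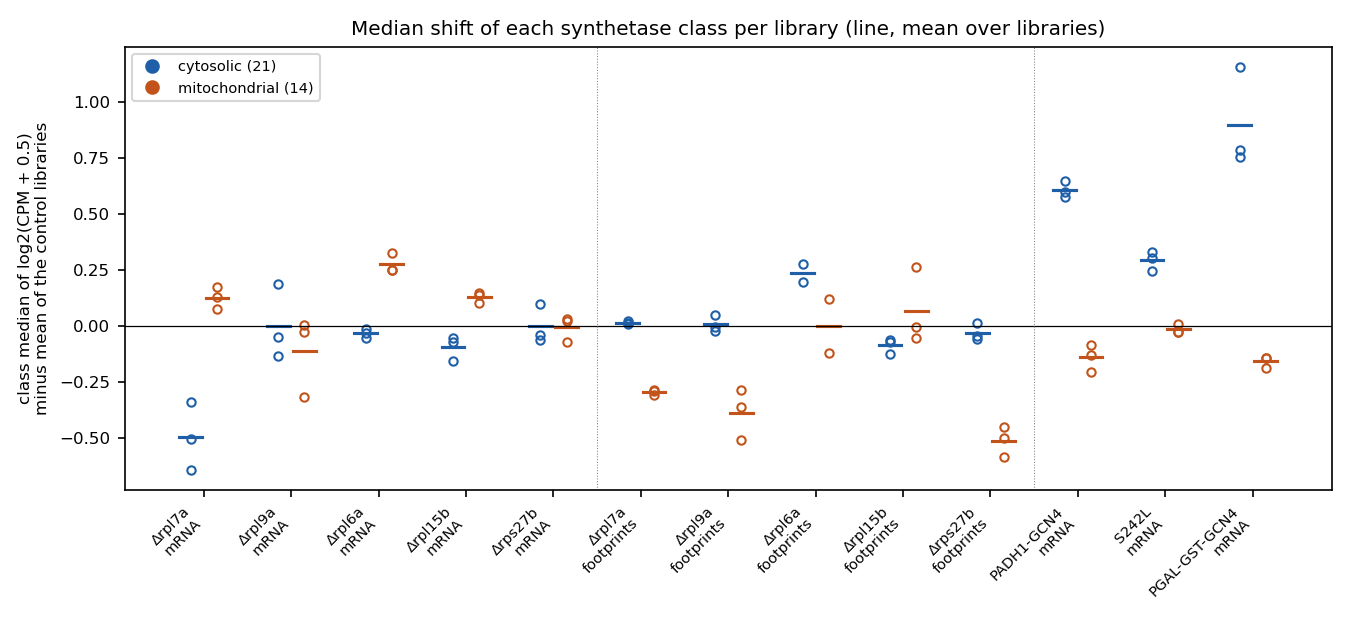
Median over each class of log2(CPM + 0.5) in a library minus the mean of its control libraries, for every library (circles) and as the mean over libraries (lines), in the deletion strains (mRNA, then footprints) and in the GCN4 strains. Cytosolic medians lie highest in PGAL-GST-GCN4 (0.76 to 1.16) and lowest in Δrpl7a mRNA (-0.64 to -0.34), and mitochondrial medians lie lowest in Δrps27b footprints (-0.58 to -0.45).

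The deletion strains were compared with the wild type for mRNA, for footprints and for translation efficiency, the footprint difference minus the mRNA difference, tested as an interaction. They share the wild-type libraries. In the mRNA of Δrpl7a, 18 of 21 cytosolic genes passed as lower and none as higher, against 27.9% and 31.2% of 5490 genes. The median was -0.47, against 0.03 for all genes. The cytosolic share of the counts was 1.29% to 1.53% in the wild type and 0.981% to 1.31% in Δrpl7a. Of the mitochondrial genes 4 passed as higher (phenylalanyl MSF1, asparaginyl SLM5, MSK1 and AIM10) and none as lower, and GRS2 passed as higher (0.49 ± 0.19, edgeR adjusted p = 0.039), but not without 5 of the 6 libraries in turn (up to 0.14). For 12 of the 14 amino acids with separate enzymes the mitochondrial gene had the higher fold change. No member was called, where 18.7% of all genes were.

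MES1 (YGR264C) read 390, 366 and 502 CPM in the wild type and 177, 178 and 281 CPM in Δrpl7a (-0.98 ± 0.20, edgeR adjusted p = 0.00048). HTS1 (YPR033C) read 345, 291 and 338 CPM against 180, 183 and 230 CPM (-0.71 ± 0.12, edgeR adjusted p = 0.00014). Neither gene overlapped between the strains. MSF1 (YPR047W) rose from 25.6, 20.8 and 20.1 CPM to 44.1, 48.8 and 31.7 CPM (0.90 ± 0.21, edgeR adjusted p = 0.0016), and SLM5 (YCR024C) from 19.8, 21.7 and 18.4 CPM to 32.4, 34.3 and 29.3 CPM (0.68 ± 0.11, edgeR adjusted p = 0.00011). DPS1 was an exception among the cytosolic genes at 0.08 ± 0.11, as were GUS1 and ILS1, which did not pass. Without replicate 1 of Δrpl7a the number of members that passed fell from 23 to 15, and without replicate 3 of the wild type 11 cytosolic genes passed in place of 18. Over the libraries left out in turn, 11 of the 18 cytosolic and 3 of the 4 mitochondrial genes passed each time. AIM10 passed in none of those fits.

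GCN4 footprints were 7.14-fold higher in Δrpl7a than in the wild type (2.84 ± 0.18 on the log2 scale, edgeR adjusted p = 1.6e-10) and 2.67-fold higher in Δrpl9a, while GCN4 mRNA did not pass in either strain. GCN4 footprints were also higher in Δrpl6a (1.56-fold, edgeR adjusted p = 0.025) and were lower in Δrps27b (0.707 of the wild-type level, edgeR adjusted p = 0.032). In the footprints of Δrpl7a the cytosolic median was 0.00, with 6 genes passing as higher and 2 as lower, where 20.7% and 21.7% of 5342 genes passed. DPS1 read 808, 904 and 817 CPM in the wild type and 1150, 1136 and 1087 CPM in Δrpl7a (0.42 ± 0.06, edgeR adjusted p = 2.9e-05). TYS1 read 443, 468 and 501 CPM against 659, 606 and 612 CPM (0.41 ± 0.07, edgeR adjusted p = 4.7e-05). CRS1 (-0.29 ± 0.07) and CDC60 (-0.25 ± 0.07) were lower. Of the mitochondrial genes 5 passed as lower and none as higher, with a median of -0.27. MSR1 was lowest (-0.73 ± 0.22, edgeR adjusted p = 0.011), then NAM2 (YLR382C, leucyl, -0.57 ± 0.16, edgeR adjusted p = 0.0065), a protein that also takes part in the splicing of mitochondrial introns. MSR1 did not pass without replicate 3 of the wild type (adjusted p = 0.092 by edgeR), nor NAM2 without replicate 1 of the wild type (0.059). Without replicate 3 of Δrpl7a, 8 members passed in place of 13. The 6 cytosolic genes that were higher became 3 without replicate 1 of the wild type or replicate 1 or 3 of Δrpl7a, and the 5 mitochondrial genes that were lower became 3 without replicate 1 of the wild type or replicate 2 or 3 of Δrpl7a.

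Translation efficiency in Δrpl7a therefore differed between the classes in the opposite sense to mRNA. All 21 cytosolic genes had values above 0, with a median of 0.52, and 18 passed as higher, where 19.4% of 5524 genes did. Of the mitochondrial genes 3 passed as lower, where 22.2% did, and 13 of 14 had values below 0, with a median of -0.42. TYS1, whose mRNA fell from 419, 431 and 473 CPM to 282, 313 and 365 CPM, had the highest efficiency difference (0.88 ± 0.17, edgeR adjusted p = 0.00016), followed by HTS1 (0.83 ± 0.14, edgeR adjusted p = 2.2e-05). SLM5 was lowest and was called (-1.20 ± 0.18, edgeR adjusted p = 5.6e-06), where 10% of genes were called lower. Its footprints read 14.7, 16.1 and 12.6 CPM in the wild type and 11.0, 9.42 and 9.72 CPM in Δrpl7a. MSF1 passed at -0.82 ± 0.29 (edgeR adjusted p = 0.024) but not without 6 of the 12 libraries in turn (up to 0.097). The mRNA value enters the efficiency with a negative sign, so the opposite directions are in part built into the measure.

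**Figure D4:**
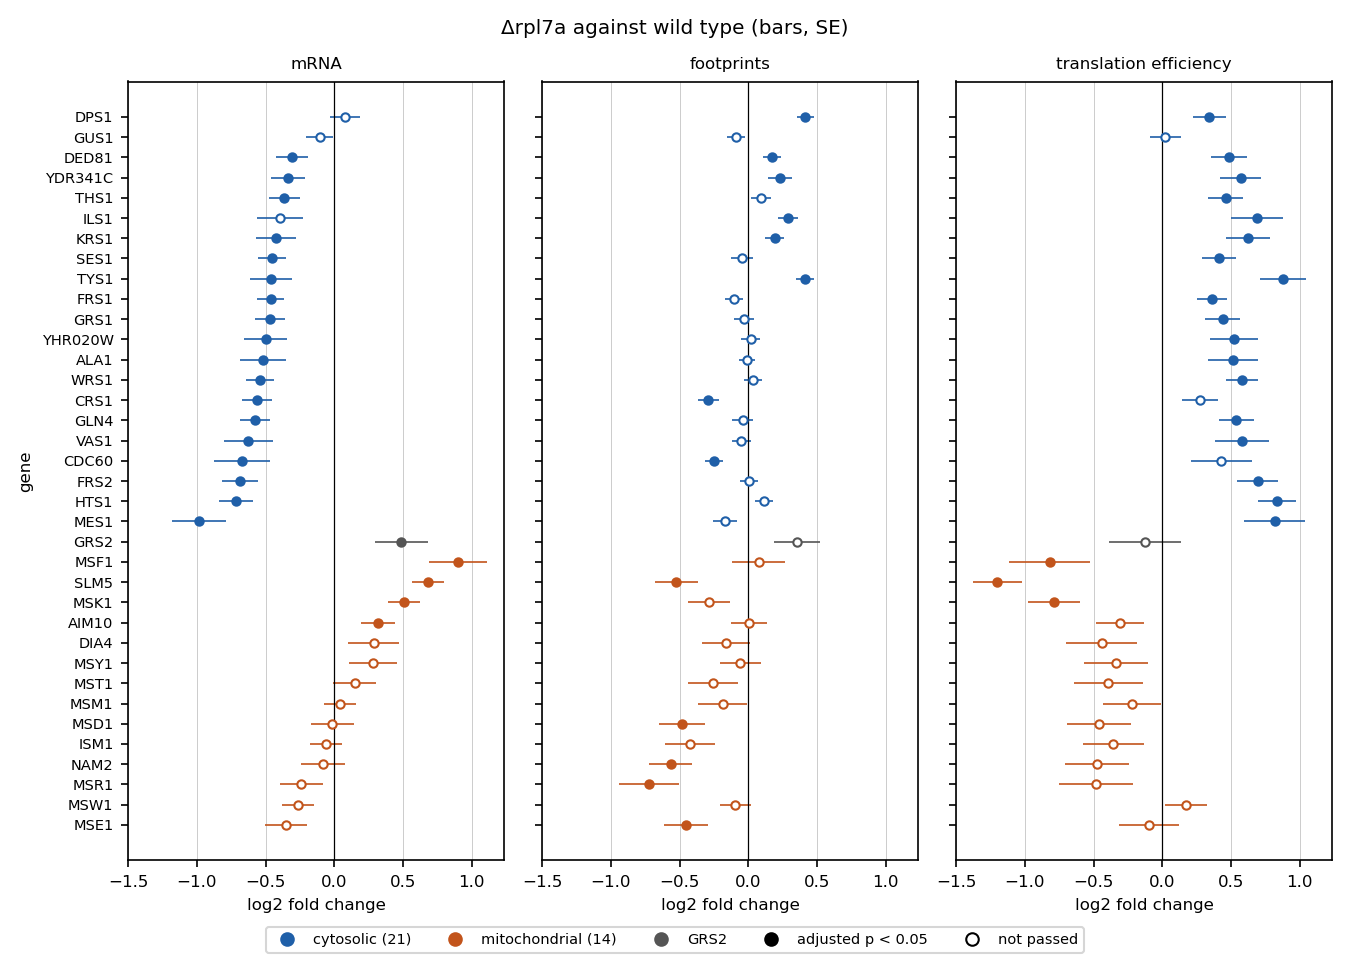
Log2 fold changes of the 36 genes (rows) in Δrpl7a against wild type for mRNA, footprints and translation efficiency, on a shared axis, with bars for SE and filled circles for an adjusted p below 0.05. The cytosolic medians are -0.47, 0.00 and 0.52, and the mitochondrial medians 0.09, -0.27 and -0.42.

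Δrpl9a is the other long-lived strain. In its mRNA, of the cytosolic genes GUS1 and DPS1 passed as higher and none as lower, and MSW1 alone of the mitochondrial genes passed as lower, where 18.7% of genes passed as higher and 13.4% as lower. GUS1 read 1171, 1167 and 1269 CPM in the wild type and 1506, 1684 and 1587 CPM in Δrpl9a (0.41 ± 0.10, edgeR adjusted p = 0.0051). DPS1 (0.29 ± 0.11, edgeR adjusted p = 0.045) did not pass without 5 of the 6 libraries in turn (up to 0.18), nor MSW1 (-0.37 ± 0.12, edgeR adjusted p = 0.023) without 4 of them (up to 0.083). The libraries of Δrpl9a differed among themselves, with cytosolic medians against the wild-type mean of -0.13, -0.05 and 0.19 in replicates 1 to 3. Replicate 3 was also the highest in the wild type. Cytosolic medians there were 264, 274 and 318 CPM per kb in replicates 1 to 3, beside 255, 265 and 342 in Δrpl9a. The number of members that passed was 3 and became 8 with the replicate number as a block, where 2 cytosolic genes (FRS2 and TYS1) and 3 mitochondrial genes passed as lower and 2 and 1 as higher. It was 1 without replicate 2 of the wild type or replicate 1 of Δrpl9a, and 6 without replicate 3 of Δrpl9a, with 3 cytosolic genes as lower.

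In the footprints of Δrpl9a all 14 mitochondrial genes were below 0, with a median of -0.44, and 7 passed as lower, where 16.1% of genes did. SLM5 read 14.7, 16.1 and 12.6 CPM in the wild type and 9.32, 7.32 and 9.16 CPM in Δrpl9a (-0.75 ± 0.15, edgeR adjusted p = 0.00093). MSK1 read 19.5, 23.9 and 20.3 CPM against 13.3, 14.8 and 12.6 CPM (-0.64 ± 0.15, edgeR adjusted p = 0.003). For both genes every Δrpl9a library was below every wild-type library. Of the cytosolic genes KRS1 (0.22), DPS1 (0.22) and DED81 (0.21) passed as higher, where 16.3% did, and the median was 0.01. Without replicate 1 of the wild type 6 members passed in place of 10, and none of the 3 cytosolic genes passed in every fit with a library left out. For efficiency, SLM5 (-0.92 ± 0.18, edgeR adjusted p = 0.00032), MSK1 (-0.79 ± 0.19, edgeR adjusted p = 0.0022), AIM10 and GUS1 passed as lower, where 16.4% of genes did. Without replicate 2 of Δrpl9a mRNA, 2 of these 4 passed.

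In Δrpl6a a minority of each class passed. For mRNA, 4 mitochondrial genes passed as higher and 13 of the 14 were above 0, where 13.3% of genes passed as higher and 9.13% as lower, and no cytosolic gene passed (0 of 21 also at an unadjusted p below 0.05 by edgeR, and 0 by DESeq2). MSF1 read 25.6, 20.8 and 20.1 CPM in the wild type and 48.1, 47.0 and 36.4 CPM in Δrpl6a (0.98 ± 0.21, edgeR adjusted p = 0.0028), and NAM2 read 27.6, 28.5 and 32.9 CPM against 55.1, 53.7 and 58.9 CPM (0.91 ± 0.16, edgeR adjusted p = 0.0005). Every Δrpl6a library was above every wild-type library for both. MSW1 (0.60) and SLM5 (0.41) followed, the last of which did not pass without replicate 3 of the wild type or replicate 1 of Δrpl6a (up to 0.081). With the replicate number as a block, 8 members passed in place of 4, namely 6 mitochondrial genes as higher and 2 cytosolic genes, TYS1 and MES1, as lower.

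In the footprints of Δrpl6a all 21 cytosolic genes were above 0, with a median of 0.21, and 8 passed as higher, where 10.2% of genes did and 7.58% passed as lower. CDC60 read 1143, 1250 and 1319 CPM in the wild type and 1810 and 1843 CPM in the 2 libraries of Δrpl6a (0.56 ± 0.07, edgeR adjusted p = 7.4e-06). Of the mitochondrial genes NAM2 alone passed (33.4, 23.4 and 24.8 CPM against 52.6 and 53.9 CPM, 0.96 ± 0.17, edgeR adjusted p = 0.00024). Without replicate 2 of Δrpl6a 5 members passed in place of 9. The 8 cytosolic genes became 4 in that fit, 5 without replicate 1 of the wild type and 13 by DESeq2. For efficiency no member passed (13 of 36 at an unadjusted p below 0.05 by edgeR, and 1 passed by DESeq2), where 4.71% of genes passed as higher and 5.65% as lower, and 9 passed with the replicate block, 7 cytosolic genes as higher and 2 mitochondrial genes as lower.

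The values of NAM2 in Δrpl6a moved with those of its stretch of chromosome XII. The 468 genes tested on chromosome XII had a median mRNA difference of 0.63, and 77.4% of them were above 0. Among the 40 genes nearest to NAM2, all 40 were above 0 for mRNA, with a median of 0.80, and for footprints the median was 0.84. The 40 genes nearest to DPS1 and to FRS1, also on chromosome XII, had mRNA medians of -0.17 and -0.02, and DPS1 and FRS1 themselves differed by 0.20 and -0.01. The part of this regional difference in the value of NAM2 was not tested.

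Chromosome XI showed the same kind of difference in Δrps27b, where its 302 genes had a median mRNA difference of 0.95 and 97.7% were above 0. MST1 (YKL194C), the only member on chromosome XI, read 24.6, 33.7 and 28.1 CPM in the wild type and 37.4, 41.3 and 50.2 CPM in Δrps27b (0.58 ± 0.15, edgeR adjusted p = 0.011), and its 40 nearest genes had a median of 0.91. YHR020W was the other member that passed for mRNA (0.56 ± 0.16, edgeR adjusted p = 0.017), where 14.3% of genes passed as higher and 11% as lower. MST1 did not pass without replicate 1 of the wild type or replicate 3 of Δrps27b (up to 0.061 by edgeR), nor YHR020W without 4 of the 6 libraries in turn (up to 0.079). Without replicate 1 of the wild type 0 members passed in place of 2, and 6 passed with the replicate block, where FRS1, FRS2 and CRS1 were lower and SLM5 was added as higher.

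In the footprints of Δrps27b the mitochondrial median was the lowest of the 5 deletion strains. Of the 14 genes, 8 passed as lower and none as higher, with a median of -0.54, where 24.8% of genes passed as lower and 24.3% as higher. NAM2 read 33.4, 23.4 and 24.8 CPM in the wild type and 12.5, 14.2 and 12.7 CPM in Δrps27b and was called (-1.06 ± 0.17, edgeR adjusted p = 2.5e-05), where 5.45% of genes were called lower. DIA4 read 13.6, 14.1 and 12.6 CPM against 8.06, 5.69 and 7.34 CPM (-0.93 ± 0.19, edgeR adjusted p = 0.00044). Neither gene overlapped between the strains. MST1 was the exception at 0.41 ± 0.18 and did not pass. It lies on chromosome XI, where the median footprint difference was 0.90, and its 40 nearest genes had a median of 1.01. The part of this regional difference in the value of MST1 was not tested. GRS2 read 15.3, 10.5 and 13.8 CPM against 10.6, 8.12 and 7.34 CPM (-0.62 ± 0.18, edgeR adjusted p = 0.0083), with the highest Δrps27b library just above the lowest wild-type library. The cytosolic median was -0.01, with YHR020W highest (683, 778 and 762 CPM against 978, 1027 and 972 CPM, 0.42 ± 0.07, edgeR adjusted p = 2.8e-05) among 5 that passed as higher and GLN4 lowest (-0.25 ± 0.08) of 2 that passed as lower. Without replicate 3 of the wild type GLN4 did not pass (0.053 by edgeR). The 5 higher cytosolic genes became 2 without replicate 1 of the wild type and 3 without replicate 2 of the wild type or replicate 3 of Δrps27b. Efficiency was lower for 7 mitochondrial genes, where 12% of all genes passed as lower and 9.12% as higher, and for no cytosolic gene. MSF1 (-1.04 ± 0.31, edgeR adjusted p = 0.016) and DIA4 (-0.93 ± 0.27, edgeR adjusted p = 0.015) had the lowest efficiency values, and did not pass without 2 and 1 of the 12 libraries, respectively (up to 0.055 and 0.052).

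**Figure D5:**
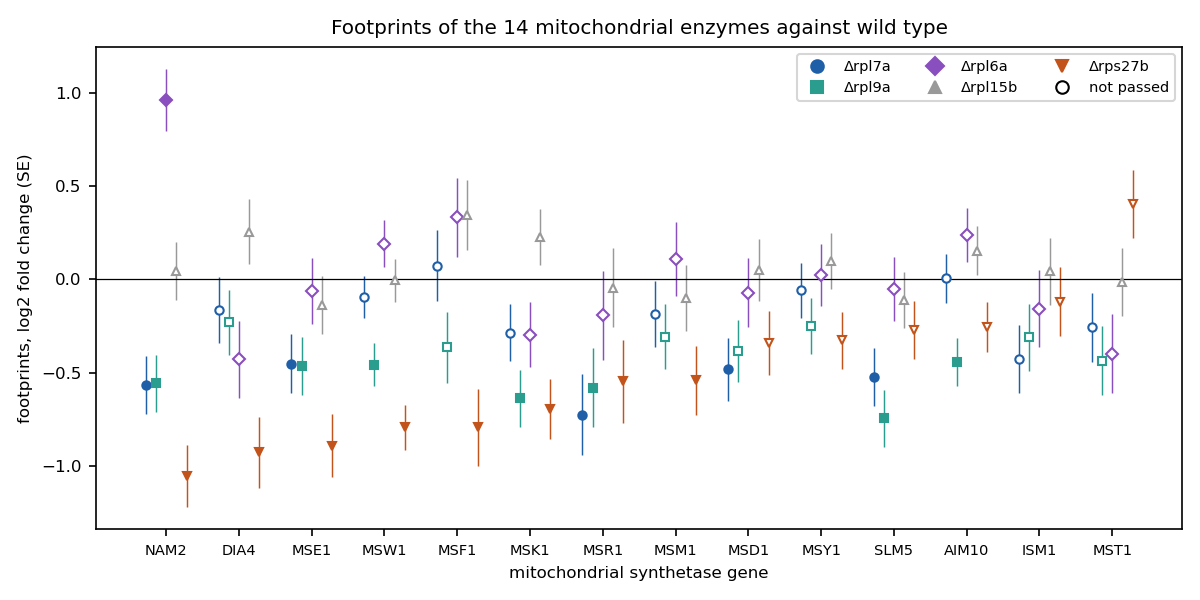
Footprint log2 fold changes of the 14 mitochondrial genes in the 5 deletion strains against wild type, with bars for SE and filled symbols for an adjusted p below 0.05. The medians are lowest in Δrps27b (-0.54), followed by Δrpl9a (-0.44) and Δrpl7a (-0.27), with -0.05 for Δrpl6a and 0.05 for Δrpl15b, and NAM2 reaches 0.96 in Δrpl6a and -1.06 in Δrps27b.

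Δrpl15b had no member that passed in mRNA, footprints or efficiency by edgeR, where 2.13%, 7.39% and 0.38% of genes passed in either direction. At an unadjusted p below 0.05, 2, 3 and 0 of the 36 members differed, and by DESeq2 0, 1 and 0 passed. For footprints, 1 member passed without replicate 1 of the wild type and 2 without replicate 2 of Δrpl15b.

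The long-lived strains together were compared with the short-lived strains together. The p-values rest on the spread between libraries and not between strains, so they do not show a trait shared by long-lived strains. For mRNA, 9 cytosolic genes were lower and none higher, and 5 mitochondrial genes were lower and MSK1 higher, where 27.9% of genes passed as lower and 29.3% as higher. HTS1 had the largest cytosolic difference (-0.56 ± 0.08, edgeR adjusted p = 1.8e-05) and MSW1 (-0.54 ± 0.08, edgeR adjusted p = 1.7e-05) and MSE1 (-0.54 ± 0.10, edgeR adjusted p = 0.00016) the largest mitochondrial ones, and MSK1 differed by 0.25 ± 0.07 (edgeR adjusted p = 0.0099). With the replicate block 15 cytosolic genes were lower. The long-lived strains were not alike in this class. Against wild type, 18 cytosolic genes passed as lower in Δrpl7a mRNA (median -0.47). In Δrpl9a mRNA none passed as lower and 2 as higher (median -0.02). For footprints, 6 mitochondrial genes were lower and none higher, where 24% and 21.8% of genes passed, and the cytosolic genes divided into 4 higher and 6 lower. NAM2 (-0.55 ± 0.11, edgeR adjusted p = 0.00027) and SLM5 (-0.49 ± 0.10, edgeR adjusted p = 0.00062) were lowest, and DPS1 (0.28 ± 0.04, edgeR adjusted p = 2e-05) and DED81 (0.19 ± 0.04, edgeR adjusted p = 0.0018) highest. NAM2 and MST1 are among the mitochondrial genes counted as lower in both assays, and each lies in a stretch that was higher in a short-lived strain (Δrpl6a and Δrps27b). The 40 genes nearest to NAM2 had medians of -0.21 for mRNA and -0.34 for footprints, and those nearest to MST1 of -0.26 and -0.44, beside -0.35, -0.55, -0.41 and -0.34 for the genes themselves. The mitochondrial count in footprints fell from 6 to 3 without replicate 2 of Δrpl6a, replicate 3 of Δrpl15b or replicate 2 of Δrpl7a, and 2 of the 6 genes passed in every fit with a library left out. The cytosolic count in mRNA rose from 9 to 15 without replicate 3 of Δrpl7a.

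Other genes of tRNA charging and of the translation systems were counted by fixed lists beside the synthetases. The 67 mitochondrial ribosomal protein genes were lower in 59 cases and higher in 1 in PADH1-GCN4 (median -0.59), lower in 28 and higher in 2 in PGAL-GST-GCN4 and lower in 18 in S242L, where 3, 2 and 0 of the 14 mitochondrial synthetase genes and 24.2%, 23.5% and 10.9% of all genes were lower. In Δrpl6a mRNA, 33 of the 67 were higher, where 13.3% of all genes were. In footprints 31 were lower in Δrpl9a and 35 in Δrps27b (16.1% and 24.8% of all genes), with medians of -0.28 and -0.34 beside -0.44 and -0.54 for the mitochondrial synthetases. Of 8 mitochondrial translation factors (such as the elongation factors TUF1 and MEF1), 6 were lower in PADH1-GCN4 and 4 each in the footprints of Δrpl9a and Δrps27b, beside the same shares of all genes. Of 11 genes of RNA polymerase III and its repressor MAF1, which together set the making of tRNA, 8 passed as lower and 1 as higher in Δrpl7a mRNA, and 7 as higher and 1 as lower in Δrpl7a efficiency, where 27.9% of all genes were lower in mRNA and 19.4% higher in efficiency. The gene that passed in the other direction was the repressor MAF1 each time (1.06 in mRNA and -0.88 in efficiency). The 5 partners of charging (ARC1, which binds the methionyl and glutamyl enzymes, the 3 subunits of the mitochondrial amidotransferase HER2, PET112 and GTF1, and the deacylase DTD1) had none that passed in PADH1-GCN4 or S242L. In PGAL-GST-GCN4 GTF1 was higher (0.65) and DTD1 lower (-1.02), and in Δrpl7a mRNA GTF1 was higher (0.41) and ARC1 lower (-0.40). Of 4 genes of tRNA export (LOS1, MSN5, MTR10 and CEX1), 1 was higher in PADH1-GCN4, where 25% of genes were, and all 4 were lower in the footprints of the long-lived strains against the short-lived ones, where 24% of genes were. LOS1, with the largest of these differences (-0.66), lies on chromosome XI and was higher by 1.60 in the footprints of Δrps27b, and the part of the regional difference in its value was not tested.

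Counts of 0 in 1 direction were also read at an unadjusted p below 0.05 by edgeR and at an adjusted p below 0.05 by DESeq2. No mitochondrial gene was higher by either reading in PADH1-GCN4, in PGAL-GST-GCN4, in the mRNA of Δrpl9a or in the footprints of Δrpl7a, Δrpl9a and of long-lived against short-lived strains, and no cytosolic gene was higher in Δrpl7a mRNA or in the mRNA of long-lived against short-lived strains. In the mRNA of Δrpl9a, however, 1 mitochondrial gene was higher with the replicate block and 1 without replicate 3 of Δrpl9a. No cytosolic gene was lower by either reading in Δrpl7a efficiency, in Δrpl6a footprints or in PADH1-GCN4 against S242L. Unadjusted, 2 mitochondrial genes were lower in Δrpl7a mRNA (2 also by DESeq2), 1 cytosolic gene was lower in the mRNA and 1 in the footprints of Δrpl9a (0 by DESeq2), and in Δrps27b 1 mitochondrial gene was higher in footprints and 2 cytosolic genes in efficiency (0 by DESeq2).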

How the data were processed

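The deposited count tables hold whole-number read counts per gene, which the authors made by trimming with FASTX, discarding reads under 20 bases, mapping to the transcriptome with segemehl at 90% accuracy and keeping uniquely mapped reads, for ribosome profiling only coding reads with a 3-base periodicity. The submitters' notes name sacCer3. The sources used here do not give the strand setting of the counting. Tables of the authors' own fold changes and p-values were not used. The wild-type columns present in both GCN4 tables were identical and were used once. Counts of replicates differed by more than sampling noise (chi-square of at least 3.13 per gene in every pair). Replicates were separate biological samples per the study's methods.

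Counts were tested with edgeR 4.0.16 in R 4.3.3 (TMM scaling, filterByExpr, quasi-likelihood, Benjamini-Hochberg adjustment over all genes), with all groups of a table in 1 fit. PADH1-GCN4 against wt(met) was fitted on those 6 libraries, and S242L on the 9 libraries of the joint table, from which the CPM values of the 3 strains come. Translation efficiency was an interaction term over 35 libraries, with the assays scaled separately. The fits were also run on simulated counts in which the libraries varied independently. Such counts cannot show how the fits behave where same-numbered libraries deviate together, as described below. The members and lists were chosen with earlier results of these data known. Full statistics were given for the 2 members that rose most and the 2 that fell most in each comparison, for genes fixed by position or paralogy, and otherwise for examples chosen after their values were seen.

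Alternatives were DESeq2 1.42.0, median-of-ratios scaling, no count filter, only the groups compared, the replicate number as a block, each library left out in turn, members outside chromosomes XI and XII, and the stricter threshold. Same-numbered libraries deviated together in the mRNA of the deletion strains (r from 0.162 to 0.684 over 45 pairs) and of the plasmid strains (0.362 to 0.453 over 3 pairs), and were therefore paired by the data. No such pairing was seen in footprints (-0.248 to 0.17) or in the PADH1-GCN4 set (-0.536 to 0.541). The main fits, and the counts of members that passed in them, did not use this pairing. It entered only in the fits with the replicate block.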

Additional observations from a re-analysis of the deposited data

Results flagged for a closer look

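Differences between groups were listed where the direct test of the difference had an adjusted p below 0.01 by edgeR and a log2 difference over 0.5. For PADH1-GCN4 against S242L these were KRS1 (0.84), CDC60 (0.79), YDR341C (0.77), YHR020W (0.71), DPS1 (0.70) and VAS1 (0.65), all cytosolic. For long-lived against short-lived strains they were HTS1 (-0.56), MSW1 (-0.54) and MSE1 (-0.54) in mRNA and NAM2 (-0.55) in footprints. NAM2 lies in the stretch of chromosome XII that was higher in Δrpl6a, and the part of that stretch in its value was not tested.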

How the results depend on the processing

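Over all results and alternatives, 4520 values were counted as the same, 297 no longer passed, 37 newly passed and 106 moved further. None that passed turned in direction. A gene that passed was the same where it passed again in its direction. A gene that did not pass was the same where it again did not, whatever its sign. Class medians were the same within the replicate spread, and counts of members within 1.5 times. The cause of the moves was not tested unless fewer libraries or genes account for it.

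At the study's thresholds (adjusted p below 0.01, more than 2-fold) 10 members were called in PGAL-GST-GCN4, 5 in PADH1-GCN4, 1 each in S242L, Δrps27b footprints and Δrpl7a efficiency, and 0 in PADH1-GCN4 against S242L, in both comparisons of long-lived with short-lived strains, in the mRNA of Δrpl7a, Δrpl9a, Δrpl6a and Δrps27b, in the footprints of Δrpl7a, Δrpl9a and Δrpl6a and in the efficiency of Δrpl9a and Δrps27b. With the replicate block the members that passed went from 3 to 8 in Δrpl9a mRNA, from 4 to 8 in Δrpl6a mRNA, from 0 to 1 in Δrpl15b mRNA, from 2 to 6 in Δrps27b mRNA and from 0 to 9 in Δrpl6a efficiency, and stayed within 1.5 times elsewhere. With only the groups compared in the fit, 1 passed in Δrpl9a mRNA, 4 in Δrpl9a footprints and 2 in Δrpl9a efficiency. By DESeq2, 4 passed in Δrps27b mRNA, 14 in Δrpl6a footprints, 1 in Δrpl15b footprints and 1 in Δrpl6a efficiency. Without members on chromosomes XI and XII, 1 passed in Δrps27b mRNA.

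The cytosolic median of Δrpl7a footprints, 0.00, was 0.012 by median-of-ratios scaling, 0.013 by DESeq2 and 0.017 with only the groups compared, where the mitochondrial median was -0.26. The mitochondrial median of PGAL-GST-GCN4 was -0.21 by DESeq2. Without chromosomes XI and XII the mitochondrial medians were 0.16 in Δrpl7a mRNA, 0.17 in Δrpl15b mRNA, -0.24 in Δrpl7a footprints and -0.089 in PADH1-GCN4, and the cytosolic median of Δrps27b footprints was 0.028.

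With a library left out in turn, the members that passed ranged from 15 (without replicate 1 of Δrpl7a) to 24 in Δrpl7a mRNA, from 1 (without replicate 2 of the wild type or 1 of Δrpl9a) to 6 (without replicate 3 of Δrpl9a) in Δrpl9a mRNA, from 0 (without replicate 1 of the wild type) to 2 in Δrps27b mRNA, with 1 without replicate 2 or 3 of Δrps27b, from 8 (without replicate 3 of Δrpl7a) to 12 in Δrpl7a footprints, from 6 (without replicate 1 of the wild type) to 10 in Δrpl9a footprints, from 5 (without replicate 2 of Δrpl6a) to 13 in Δrpl6a footprints, from 0 to 2 (without replicate 2 of Δrpl15b) in Δrpl15b footprints, from 2 (without replicate 2 of Δrpl9a mRNA) to 6 in Δrpl9a efficiency and from 0 to 1 in Δrpl6a efficiency. Cytosolic medians ranged from -0.096 to 0.075 in Δrpl6a mRNA, from -0.17 to -0.030 in Δrpl15b mRNA, from -0.095 to 0.081 in Δrps27b mRNA, from -0.032 to 0.051 in Δrpl7a footprints, from -0.032 to 0.054 in Δrpl9a footprints, from 0.18 to 0.27 in Δrpl6a footprints, from -0.13 to -0.033 in Δrpl15b footprints, from -0.077 to 0.024 in Δrpl15b efficiency, from -0.093 to 0.094 in Δrps27b efficiency, from 0.51 to 0.66 in PADH1-GCN4, from 0.28 to 0.33 in S242L and from 0.19 to 0.34 in PADH1-GCN4 against S242L. Mitochondrial medians ranged from -0.00080 to 0.18 in Δrpl7a mRNA, from 0.072 to 0.15 in Δrpl15b mRNA, from -0.34 to -0.26 in Δrpl7a footprints, from -0.15 to 0.12 in Δrpl6a footprints, from -0.63 to -0.42 in Δrps27b footprints, from -0.48 to -0.32 in Δrpl7a efficiency and from -0.23 to -0.081 in PGAL-GST-GCN4. Mitochondrial genes had 42 to 588 counts per library of the deletion strains, which limits what could pass in this class.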
